A study of Mus musculus with 8 samples.

Results

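Efferocytosis receptors and bridging proteins were examined in bone marrow-derived macrophages (BMDMs) exposed to sphingosine d18:1, written So(d18:1). The set holds 10 genes listed by name for their roles, by a rule that uses no measured value, although earlier results of these data were known when the list was made. They are the receptor genes Mertk, Axl, Tyro3 and Timd4, the bridging protein genes Gas6, Pros1 and Mfge8, the engulfment signalling genes Elmo1 and Dock1, and the scramblase gene Xkr8. All 10 were among the 55357 genes of the deposited count table, and 8 passed the filter on low counts that left 14514 genes for testing. Tyro3 and Timd4 did not pass it.

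The macrophages came from the bone marrow of wild-type C57BL/6J mice and were grown for 5 to 6 days with 10 ng/ml M-CSF, the growth factor that drives macrophage differentiation. Of the 8 poly(A) RNA libraries, 4 came from cells given 2 μM So(d18:1) dissolved in methanol for 6 h and 4 from Control cells given methanol alone for 6 h. So(d18:1) is a sphingoid base released when ceramide is broken down. The labels name only So(d18:1) or methanol as treatment, whereas the study's text places this experiment under an inflammatory stimulus, so whether the cells of both groups were stimulated is not settled here. The labels name no animal for any library and the study calls the libraries biologically independent, so p-values measure the spread between these libraries. No apoptotic cells are named as added to the cultures, and the data give transcript levels and no measure of engulfment.

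Efferocytosis is the uptake of dying cells by phagocytes. A dying cell exposes phosphatidylserine on its surface, and Xkr8, a scramblase activated during apoptosis, moves the lipid there. The phagocyte reads it directly through receptors such as that encoded by Timd4, or through soluble bridging proteins: those encoded by Gas6 and Pros1 link phosphatidylserine to the receptor tyrosine kinases Tyro3, Axl and Mertk (the TAM receptors), and that encoded by Mfge8 links it to αv integrins. Inside the phagocyte, the Elmo1 and Dock1 proteins form a complex that activates the GTPase Rac and drives the membrane around the corpse. In macrophages, Mertk and Axl signalling is also known to restrain inflammatory responses.

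The promoters of the TAM receptor pair that was well expressed and of its ligand pair are shown. These 4 genes were chosen after their values were seen. The groups did not overlap for either receptor, as for 15.0% of all genes tested, and overlapped for both ligands. A difference between receptors and ligands was not tested. Each sequence is the 250 bases before the RefSeq transcription start in GRCm38.p6, read on the gene's strand, and capitals mark matches on either strand to any of the motifs ACGTG and GCGTG (HIF cores), AGGTCA (nuclear receptors), TGANTCA (AP-1), GAGGAA (ETS/PU.1) and GGGCGG (GC box).
Mertk, chr2:128698665-128698914, plus strand: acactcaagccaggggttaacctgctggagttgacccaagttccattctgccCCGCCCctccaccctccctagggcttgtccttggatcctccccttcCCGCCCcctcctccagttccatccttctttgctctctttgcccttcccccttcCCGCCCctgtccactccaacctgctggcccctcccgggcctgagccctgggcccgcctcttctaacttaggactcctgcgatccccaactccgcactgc
Axl, chr7:25788734-25788983, minus strand: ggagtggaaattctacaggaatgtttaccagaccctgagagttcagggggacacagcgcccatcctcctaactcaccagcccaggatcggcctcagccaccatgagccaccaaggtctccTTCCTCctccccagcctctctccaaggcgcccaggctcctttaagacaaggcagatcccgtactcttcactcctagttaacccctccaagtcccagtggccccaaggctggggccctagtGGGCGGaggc
Gas6, chr8:13494536-13494785, minus strand: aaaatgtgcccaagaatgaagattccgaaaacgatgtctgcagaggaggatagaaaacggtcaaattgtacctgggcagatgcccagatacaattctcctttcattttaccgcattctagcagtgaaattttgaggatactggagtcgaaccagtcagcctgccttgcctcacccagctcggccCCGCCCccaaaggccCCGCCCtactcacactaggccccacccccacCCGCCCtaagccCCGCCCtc
Pros1, chr16:62854057-62854306, plus strand: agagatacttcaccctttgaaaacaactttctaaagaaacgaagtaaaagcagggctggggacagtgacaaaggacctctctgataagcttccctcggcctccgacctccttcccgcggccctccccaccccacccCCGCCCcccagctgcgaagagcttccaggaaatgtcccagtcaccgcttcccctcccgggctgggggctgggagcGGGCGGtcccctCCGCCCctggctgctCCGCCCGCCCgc
The Mertk window had a GC content of 63.6% and 3 GC box matches, at 99, 152 and 198 bases before the start. The Axl window, at 60% GC, held 1 GC box match 10 bases before the start and 1 ETS/PU.1 match at 130 bases. The Gas6 window held 4 GC box matches at 54.8% GC, and the Pros1 window 5 at 64.4% GC, with 2 bases covered by overlapping matches. None of these 4 windows had a match to either HIF core, the nuclear receptor motif or AP-1. Of 9 members with a RefSeq promoter entry, giving 10 windows because 1 gene has several starts, 8 windows held a GC box, which 32.7% of all 32851 promoters hold. The median GC content of all promoters was 52.4%, below that of each of the 4 windows shown. The shares given here are not matched for GC content. The HIF core GCGTG was in 4 of the 10 windows and ACGTG in 0, against 28.2% and 16.6% of all promoters. AGGTCA was in 1 window (14% of all promoters), TGANTCA in 0 (6.75%) and GAGGAA in 3 (23.3%). A match describes letters in the window and not binding.

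Control libraries held 20819860 to 25114354 counts and So(d18:1) libraries 17748397 to 26088609. Counts were scaled by TMM and are given as CPM, a gene's counts relative to the scaled size of its library, as mean ± SD of 4 libraries per group. Genes were called at an adjusted p under 0.05 by edgeR's quasi-likelihood test with Benjamini-Hochberg adjustment over all 14514 genes tested, and the adjusted p-values below are from this test unless another is named. The macrophage markers were high in all libraries, their 8 genes summing to 30963 to 33244 CPM in Control and 26869.7 to 31773 CPM in So(d18:1). The summed neutrophil markers (8 genes) were 1098 to 1505 CPM in Control and 853 to 960.4 CPM in So(d18:1), with 5 called lower. T cell markers summed to 20.6 to 25.7 and 13.9 to 18.8 CPM, nearly all of it from Cd4 (means 22.8 and 17.0 CPM), a gene that macrophages also express and the only 1 of the 6 tested. The T cell markers Cd3e, Cd3d and Cd3g were each at or under 0.168 CPM in every library. The 5 markers of resident tissue macrophages summed to 45.9 to 68.9 and 38.4 to 43.8 CPM, with 3 called lower. For each of these 3 lists the groups did not overlap (two-sided exact permutation test, p = 0.0286, the smallest that 4 against 4 allows). The groups overlapped for the macrophage, B cell, dendritic cell, stromal, endothelial and erythroid lists. By the same test p was 0.114 for the macrophage list and ran from 0.0857 (B cell) to 0.629 (erythroid) over these lists. In the macrophage list 1 gene was called higher and 1 lower, and in the B cell list 1 lower. No marker was at 0 in every library. The part of these marker differences in the results below was not tested.

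Of the 8 members tested, Mertk alone was called, and it was lower in So(d18:1). This is 12.5% of the members tested, where 8.94% of all genes tested were called, 5.07% lower and 3.87% higher. The log2 fold change was negative for 6 members and positive for 2, with a median of -0.10 against 0.0036 over all genes tested. The groups did not overlap for 2 members, Mertk and Axl, both lower in So(d18:1), and 15.0% of all genes tested had groups that did not overlap. Each member's value in each library is shown in the plot of CPM by group.

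**Figure D1:**
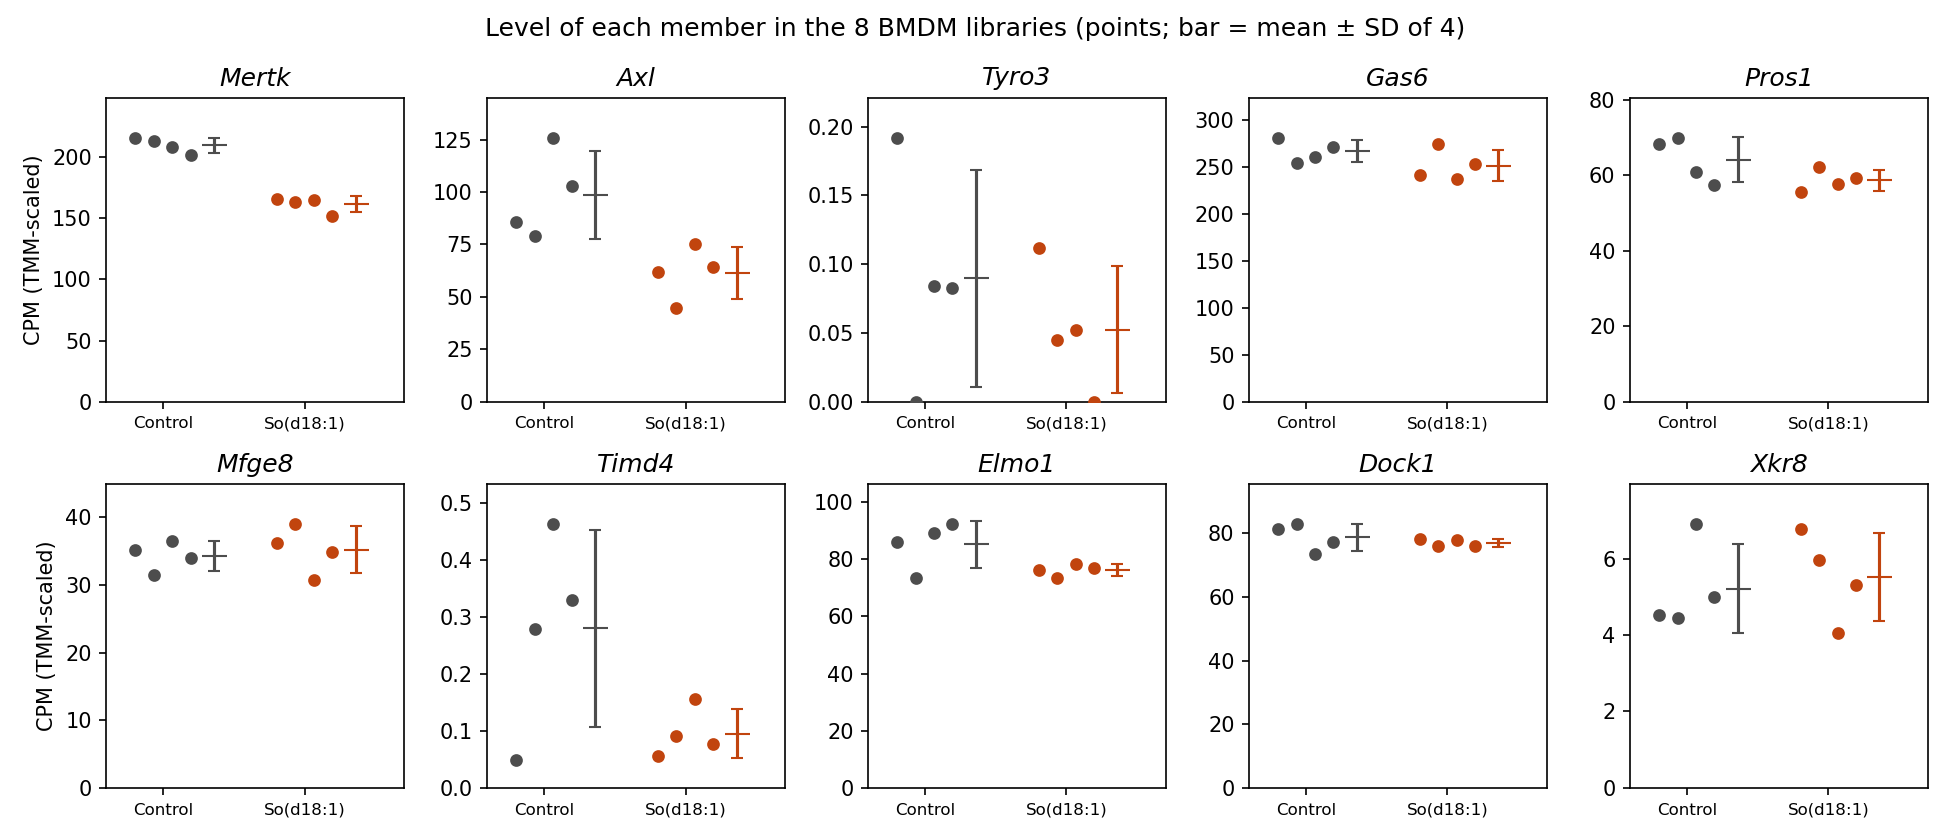
CPM (y axes, linear and starting at 0, one panel per gene) of the 10 members in the 4 Control and 4 So(d18:1) libraries; each point is 1 library and the bar beside them is the mean ± SD of the group. The groups are apart for Mertk (202 to 216 against 152 to 166 CPM) and Axl (78.9 to 126 against 44.7 to 75.0 CPM) and overlap for the other 8 genes.

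Mertk encodes the main efferocytosis receptor tyrosine kinase of macrophages (ENSMUSG00000014361, chr2:128698956-128802894, plus strand, GRCm38). It stood at 216, 213, 208 and 202 CPM in Control libraries 1 to 4 and at 166, 163, 165 and 152 CPM in So(d18:1) libraries 1 to 4. Every So(d18:1) library lay below every Control library, by a gap wider than the range within either group. The means were 209.6 ± 6.12 and 162 ± 6.21 CPM, a log2 fold change of -0.38 (SE 0.0431, 95% interval -0.47 to -0.29), or 1.30-fold lower, with an adjusted p of 6.20e-06. Between 4496 and 5348 reads were counted on it in each Control library, and between 2960 and 3929 after So(d18:1). By p-value Mertk ranked 57 of 14514. Among the 1298 called genes, 38.2% had a larger absolute log2 fold change, and their median was 0.31. No annotated gene overlaps Mertk, and none of its 50-base words recurs in another gene's exons. In bulk RNA, fewer cells of a type and less RNA per cell cannot be told apart.

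Axl encodes the TAM receptor that macrophages raise under inflammatory conditions (ENSMUSG00000002602, chr7:25757273-25788705, minus strand). It stood at 85.8, 78.9, 126 and 103 CPM in Control libraries 1 to 4 and at 62.0, 44.7, 75.0 and 64.2 CPM in So(d18:1) libraries 1 to 4. The lowest Control library lay just above the highest So(d18:1) library, and the libraries of each group were widely spread. The means were 98.5 ± 21.1 and 61.5 ± 12.5 CPM, a log2 fold change of -0.68 with an SE of 0.212 (95% interval -1.19 to -0.17), or 1.60-fold lower. Its p was 0.0171 and its adjusted p 0.115 in edgeR's quasi-likelihood test, so it was not called. Axl passed by other tests of the same counts: the adjusted p was 0.0187 by the DESeq2 Wald test, 0.00541 by limma-voom, 0.0178 by edgeR's likelihood ratio test and 0.00423 by edgeR's quasi-likelihood test without robust dispersion. The count of called members was then 2, Mertk and Axl, where these 4 tests called 1309 to 1565 of all genes, against 1298. With the replicate number as a block in edgeR's quasi-likelihood test, the adjusted p of Axl was 1.45e-08. Whether that number pairs the libraries is not settled. The study's own threshold, an unadjusted p under 0.05 with at least a 1.5-fold change, took in Axl and not Mertk, and 564 of all genes tested (3.89%).

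The within-library ratio of Axl to Mertk does not depend on how libraries are scaled. It was 0.397, 0.371, 0.609 and 0.508 in Control libraries 1 to 4 and 0.374, 0.274, 0.456 and 0.422 in So(d18:1) libraries 1 to 4, so the groups overlapped. On the log2 scale the mean was -1.11 ± 0.328 in Control and -1.42 ± 0.322 in So(d18:1), a difference of -0.30 (two-sided exact permutation test, p = 0.286). It was -0.15 without So(d18:1) library 2 and -0.17 without Control library 3. The larger fold change of Axl was therefore not told apart from that of Mertk by this test, which takes the libraries as unpaired. Between libraries of the same number, the ratio was lower in So(d18:1) every time. Whether the numbers pair the libraries is not settled.

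Tyro3, the third TAM receptor (ENSMUSG00000027298, chr2:119797733-119818104, plus strand), was close to absent. Its counts were 4, 0, 2 and 2 in Control libraries 1 to 4 and 2, 1, 1 and 0 in So(d18:1) libraries 1 to 4. The summed 8 Control counts correspond to 0.0849 CPM (exact Poisson 95% interval 0.0367 to 0.167) and the 4 So(d18:1) counts to 0.0471 CPM (0.0128 to 0.121), intervals that cover counting error only. A difference in Tyro3 was not detectable at this depth.

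Timd4 encodes a phosphatidylserine receptor typical of resident tissue macrophages (ENSMUSG00000055546, chr11:46810800-46844332, plus strand). Its counts were 1, 7, 11 and 8 in Control libraries 1 to 4 and 1, 2, 3 and 2 in So(d18:1) libraries 1 to 4. Control library 1 lay at the level of the So(d18:1) libraries, and the other Control libraries lay above all of them. The summed counts were 27 in Control, 0.287 CPM (exact Poisson 95% interval 0.189 to 0.417), and 8 in So(d18:1), 0.0943 CPM (0.0407 to 0.186). With no filter on low counts, its log2 fold change was -1.53 (SE 0.726) with an adjusted p of 0.270 by edgeR's quasi-likelihood test, and that of Tyro3 was -0.77 (SE 1.14) with an adjusted p of 0.769.

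Among the bridging proteins, Gas6, the ligand of all TAM receptors (ENSMUSG00000031451, chr8:13465374-13494490, minus strand), stood at 281, 254, 260.2 and 271 CPM in Control libraries 1 to 4 and at 241, 274, 237 and 253 CPM in So(d18:1) libraries 1 to 4. The groups overlapped because So(d18:1) library 2 exceeded 3 of the 4 Control libraries. The means were 266 ± 11.9 and 251 ± 16.8 CPM, a log2 fold change of -0.083 (95% interval -0.19 to 0.020) with an adjusted p of 0.331. A change in Gas6 as large as that of Mertk lies outside this interval. The Tmem255b gene on the other strand covers 1.33% of the exonic bases of Gas6, and whether counting used strand is not given in the sources used here.

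Pros1 encodes protein S, the ligand of Mertk and Tyro3 (ENSMUSG00000022912, chr16:62854307-62929346, plus strand). It stood at 68.3, 70.0, 60.9 and 57.4 CPM in Control libraries 1 to 4 and at 55.7, 62.2, 57.6 and 59.3 CPM in So(d18:1) libraries 1 to 4. The groups overlapped, with Control libraries 3 and 4 inside the So(d18:1) range. The log2 fold change was -0.13 (SE 0.0611, 95% interval -0.25 to 0.00085), with an adjusted p of 0.216. The ratio of Gas6 to Pros1 within a library was 4.11, 3.62, 4.27 and 4.71 in Control libraries 1 to 4 and 4.32, 4.41, 4.11 and 4.27 in So(d18:1) libraries 1 to 4. On the log2 scale the groups differed by 0.039, from 2.06 ± 0.156 to 2.10 ± 0.0420 (two-sided exact permutation test, p = 0.686).

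Mfge8 encodes the milk fat globule protein that bridges phosphatidylserine to integrins (ENSMUSG00000030605, chr7:79133768-79149060, minus strand). It stood at 35.2, 31.4, 36.5 and 33.9 CPM in Control libraries 1 to 4 and at 36.2, 39.0, 30.7 and 34.9 CPM in So(d18:1) libraries 1 to 4, and the Control range lay inside that of So(d18:1). The log2 fold change was 0.042 (95% interval -0.10 to 0.19), with an adjusted p of 0.775. Of the integrin subunit genes of its receptors, named here after their values were seen, the log2 fold change of Itgav was -0.013 (adjusted p = 0.917, edgeR) and that of Itgb5 was 0.026 (adjusted p = 0.805, edgeR), while Itgb3 was called lower and is described with the other receptors.

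**Figure D2:**
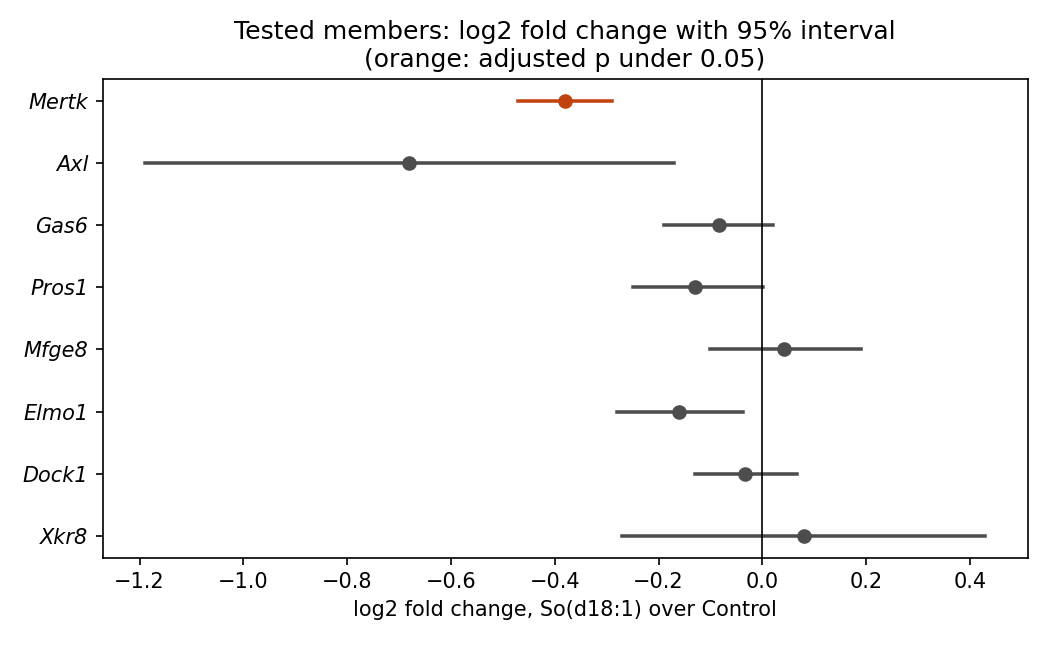
Log2 fold change of So(d18:1) over Control (x axis) for the 8 tested members, with bars for the 95% interval from edgeR's quasi-likelihood fit; orange marks an adjusted p under 0.05. The Mertk interval (-0.47 to -0.29) is narrow and away from 0, that of Axl (-1.19 to -0.17) is the widest, and those of Gas6, Pros1, Mfge8, Dock1 and Xkr8 include 0. That of Elmo1 (-0.28 to -0.038) lies below 0, although Elmo1, like Axl, was not called.

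Elmo1, the adaptor of the Rac-activating complex (ENSMUSG00000041112, chr13:20090596-20608353, plus strand), stood at 86.0, 73.5, 89.2 and 92.4 CPM in Control libraries 1 to 4 and at 76.4, 73.5, 78.2 and 76.8 CPM in So(d18:1) libraries 1 to 4. Control library 2 lay at the bottom of the So(d18:1) range, and the other Control libraries lay above it. The means were 85.3 ± 8.28 and 76.2 ± 1.99 CPM, a log2 fold change of -0.16 (SE 0.0590) with an adjusted p of 0.0968. Without Control library 2 the log2 fold change was -0.23 with an adjusted p of 0.00431, and Elmo1 was then called lower. With no filter on low counts its adjusted p was 0.0476.

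Dock1, the exchange factor that acts with the Elmo1 protein on Rac (ENSMUSG00000058325, chr7:134670654-135173639, plus strand), stood at 81.3, 82.9, 73.5 and 77.1 CPM in Control libraries 1 to 4 and at 78.3, 75.8, 77.7 and 75.8 CPM in So(d18:1) libraries 1 to 4. All So(d18:1) libraries lay inside the Control range, and the log2 fold change was -0.034 (95% interval -0.13 to 0.066) with an adjusted p of 0.731. The log2 ratio of Elmo1 to Dock1 was 0.11 ± 0.210 in Control and -0.013 ± 0.0321 in So(d18:1), a difference of -0.12 (two-sided exact permutation test, p = 0.314).

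Xkr8, the scramblase (ENSMUSG00000037752, chr4:132724897-132732546, minus strand), was low. It stood at 4.52, 4.45, 6.91 and 4.99 CPM in Control libraries 1 to 4 and at 6.78, 5.97, 4.06 and 5.31 CPM in So(d18:1) libraries 1 to 4, from 78 to 164 counts per library. The groups overlapped over most of their range, and the log2 fold change was 0.080 (95% interval -0.27 to 0.43) with an adjusted p of 0.825. The interval leaves room for a change as large as that of Mertk in absolute terms only above 0. Xkr8 needs a partner protein, and both partner genes are named here after their values were seen. Nptn, the gene of a chaperone that carries the Xkr8 protein to the plasma membrane, was at -0.11 on the log2 scale (adjusted p = 0.104, edgeR), and Bsg, the gene of the other such chaperone, at 0.15 (adjusted p = 0.0528, edgeR).

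Levels were compared between genes as CPM per kilobase of exon. In Control the order was Gas6 (105 ± 4.69), Mertk (48.3 ± 1.41), Axl (19.6 ± 4.20), Pros1 (15.7 ± 1.46), Dock1 (8.43 ± 0.452), Mfge8 (7.30 ± 0.461), Elmo1 (6.78 ± 0.658) and Xkr8 (1.21 ± 0.267), followed by Timd4 at 0.129 and Tyro3 at 0.0145. The ranges over the 4 Control libraries overlapped for the neighbours Axl and Pros1 and for the neighbours Mfge8 and Elmo1, and not for the other neighbours among the tested members. In So(d18:1), Pros1 (14.4 ± 0.675) came before Axl (12.2 ± 2.49), again with overlapping ranges, and the level of Mertk was 37.2 ± 1.43. Among all genes tested, 2.45% were higher than Gas6 in Control on this scale, 5.98% higher than Mertk, 16.9% higher than Axl and 75.8% higher than Xkr8. So the ligand Gas6 and the receptor Mertk were the most abundant members under both conditions, and the receptor Tyro3 the least.

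**Figure D3:**
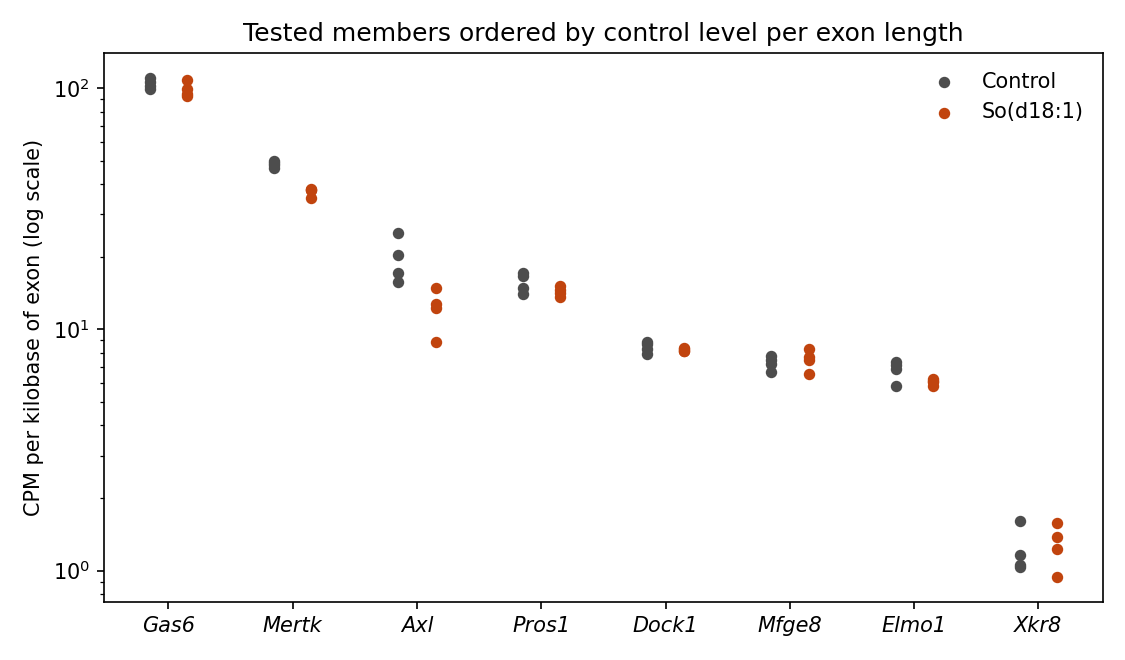
CPM per kilobase of exon (y axis, log scale) of the 8 tested members, ordered by their Control mean; each point is 1 library, grey for Control and orange for So(d18:1). Gas6 and Mertk stand above the rest, Axl and Pros1 overlap, and Xkr8 is lowest near 1 CPM per kilobase.

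The genes whose pattern over the 8 libraries was most like that of Mertk were found among 11554 genes by the root-mean-square difference of log2 CPM, each gene centred on its own mean. They were Arhgap19 at 0.0340, Hpgds, which encodes the haematopoietic prostaglandin D synthase, at 0.0376, and Gm5086 at 0.0384. Arhgap19 went from 431 to 322 CPM, Hpgds from 165 to 128 CPM and Gm5086 from 44.2 to 35.0 CPM. These are the closest of many genes and describe the libraries only.

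Other genes of the pathway were grouped by role into 9 lists of 126 genes, of which 111 were tested. Of these, 26 were called (23.4%, against 8.94% of all genes tested), 8 higher and 18 lower, and the median log2 fold change was -0.050. The lists were written with earlier results of these data known, so these shares are not independent of the choice of genes. Among other engulfment receptors, 18 of 21 were tested, with a median of -0.086. In this list 4 were called lower and none higher (22.2%, against 8.94% of all genes tested). Stab2 encodes a stabilin that binds phosphatidylserine and hyaluronan, and its fall was already known when the list was written. It fell from 7.51 ± 1.64 to 3.38 ± 0.561 CPM (log2 fold change -1.16, SE 0.163, adjusted p = 7.09e-05, edgeR). Stab1, the gene of the other stabilin, is named here after its values were seen. It was far more abundant and was not called, going from 5488 to 5682 CPM (log2 fold change 0.050, adjusted p = 0.537, edgeR). Itgb3, the β subunit of an αv integrin that binds the Mfge8 protein, fell from 16.6 ± 2.38 to 10.8 ± 1.17 CPM (log2 fold change -0.62, adjusted p = 0.000676, edgeR). Cd300lf, a lipid-binding receptor gene, fell by 0.43 on the log2 scale (adjusted p = 0.00144, edgeR). Trem2, the lipid receptor gene of phagocytes, was also called lower, from 488 to 426 CPM, and is named beyond the naming rule to complete the count.

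Among other bridging proteins, 10 of 13 were tested, and 3 were called higher and none lower (30.0%, against 8.94% of all genes tested). The median was -0.11, and 7 of the 10 had a negative log2 fold change. Thbs1, the gene of thrombospondin, which links dying cells to Cd36 and αv integrins, rose from 4183 ± 59.7 to 5800.0 ± 277 CPM (log2 fold change 0.47, SE 0.0437, adjusted p = 3.69e-07, edgeR). Lgals3, the galectin gene whose product also binds the Mertk receptor, rose from 905 ± 67.6 to 1203 ± 43.9 CPM (log2 fold change 0.41, SE 0.0501, adjusted p = 1.25e-05, edgeR). Edil3, whose product resembles that of Mfge8 and bridges phosphatidylserine to integrins, rose from 4.68 ± 1.35 to 7.83 ± 0.666 CPM (log2 fold change 0.74, adjusted p = 0.00460, edgeR). The complement genes C1qa, C1qb and C1qc, named here after their values were seen, had log2 fold changes of -0.16, -0.11 and -0.11, and none was called.

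Inside the phagocyte, none of 17 tested genes of the other engulfment signalling list was called by edgeR's quasi-likelihood test, by DESeq2 or by limma-voom. Of the 17, 5 had an unadjusted p under 0.05 by edgeR's quasi-likelihood test, where 3393 of all 14514 genes tested had one. The median of the list was -0.050. In the list of TAM receptor shedding and signalling, 11 of 13 were tested, with 1 called in each direction (18.2%, against 8.94% of all genes tested). Plcg2, a phospholipase gene, rose from 143 to 163 CPM (log2 fold change 0.19, adjusted p = 0.00956, edgeR). Adam17, the gene of the protease that sheds the Mertk receptor from the cell surface, fell from 512 ± 8.39 to 466 ± 8.08 CPM (log2 fold change -0.14, adjusted p = 0.0343, edgeR). The Adam17 call was lost whenever any 1 of the 8 libraries was left out, with an adjusted p of up to 0.108 without So(d18:1) library 2. Among lipid scrambling and flipping genes, 12 of 16 were tested, with a median of 0.020.

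Of the transcription regulators known to act on engulfment genes, 10 of 11 were tested, 4 fell and 1 rose, with a median of -0.17. Pparg, a lipid-sensing nuclear receptor gene, fell from 11.1 ± 1.03 to 5.50 ± 0.841 CPM (log2 fold change -1.01, SE 0.120, adjusted p = 9.82e-06, edgeR). Maf, a macrophage transcription factor gene, fell from 799.8 ± 7.92 to 681 ± 18.3 CPM (log2 fold change -0.23, adjusted p = 0.000630, edgeR). Klf2, a zinc finger factor gene that is known for anti-inflammatory action, rose from 21.8 to 28.6 CPM (log2 fold change 0.39, adjusted p = 0.00157, edgeR). Nr1h3, which encodes a liver X receptor that activates Mertk transcription, was also called lower, from 13.2 ± 2.69 to 8.74 ± 1.28 CPM (log2 fold change -0.60, adjusted p = 0.0104, edgeR). Nr1h2, the gene of the other liver X receptor, is named here after its values were seen. It was more abundant and was not called, going from 99.9 to 111 CPM (log2 fold change 0.15, adjusted p = 0.0738, edgeR). A part of either gene in the fall of Mertk was not tested. Nr4a1, the gene of an orphan nuclear receptor, was called lower (log2 fold change -0.70, adjusted p = 0.0102, edgeR), and its adjusted p was 0.0544 without So(d18:1) library 4. Nr1h3 and Nr4a1 are named beyond the naming rule to complete the count.

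All 15 genes of corpse digestion and lipid efflux were tested, with 2 lower and 1 higher and a median of -0.082. Lipa, the lysosomal acid lipase gene, fell from 1269.9 to 1040.5 CPM (log2 fold change -0.29, adjusted p = 0.000663, edgeR). Dnase2a, the gene of the lysosomal DNase, fell from 113 to 99.0 CPM (adjusted p = 0.0109, edgeR), and this value is uncertain because Mast1 on the other strand covers 30% of its exonic bases. Abca7, a lipid transporter gene, rose from 103 to 119.7 CPM (log2 fold change 0.22, adjusted p = 0.0143, edgeR), with an adjusted p of 0.0625 without So(d18:1) library 1.

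The inhibitory receptors and ligands of the do-not-eat-me list were tested in full, and 5 of 10 fell and none rose, with a median of -0.22. The count was 2 without So(d18:1) library 4 and 3 without Control library 4 or So(d18:1) library 2. Of the 5, Cd24a was lost in 4 of the 8 fits with a library left out (adjusted p up to 0.0872, edgeR) and Lilrb4a in 6 (up to 0.103). Both are named beyond the naming rule. The value of Lilrb4a is also uncertain because other genes cover 35.9% of its exonic bases. Of its 50-base words, 47.2% recur in other genes. Siglece, the gene of a sialic acid-binding inhibitory receptor, fell from 17.2 ± 1.34 to 10.6 ± 0.959 CPM (log2 fold change -0.70, SE 0.0918, adjusted p = 2.83e-05, edgeR). Sirpa, the gene of the receptor for Cd47, fell from 1524 ± 11.0 to 1281 ± 8.14 CPM (log2 fold change -0.25, SE 0.0386, adjusted p = 0.000211, edgeR). Siglecg, which encodes a receptor of the Cd24a product, fell from 2.92 to 1.59 CPM (log2 fold change -0.91, adjusted p = 0.0128, edgeR), with an adjusted p of 0.053 without So(d18:1) library 4. These receptors are known to restrain inflammatory signalling or uptake, a role unlike that of Mertk in engulfment. All 8 find-me genes were tested, with a median of 0.15. In this list 2 were called lower and 1 higher (37.5%, against 8.94% of all genes tested). Cx3cr1, the fractalkine receptor gene, fell from 79.8 ± 5.34 to 62.4 ± 5.42 CPM (log2 fold change -0.35, adjusted p = 0.000836, edgeR), and S1pr2, a receptor gene for sphingosine-1-phosphate, fell from 107 to 90.8 CPM (log2 fold change -0.24, adjusted p = 0.00538, edgeR). Gpr132, a lysophospholipid receptor gene, rose from 27.1 to 32.6 CPM (log2 fold change 0.26, adjusted p = 0.0178, edgeR), with an adjusted p of 0.0745 without Control library 4.

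**Figure D4:**
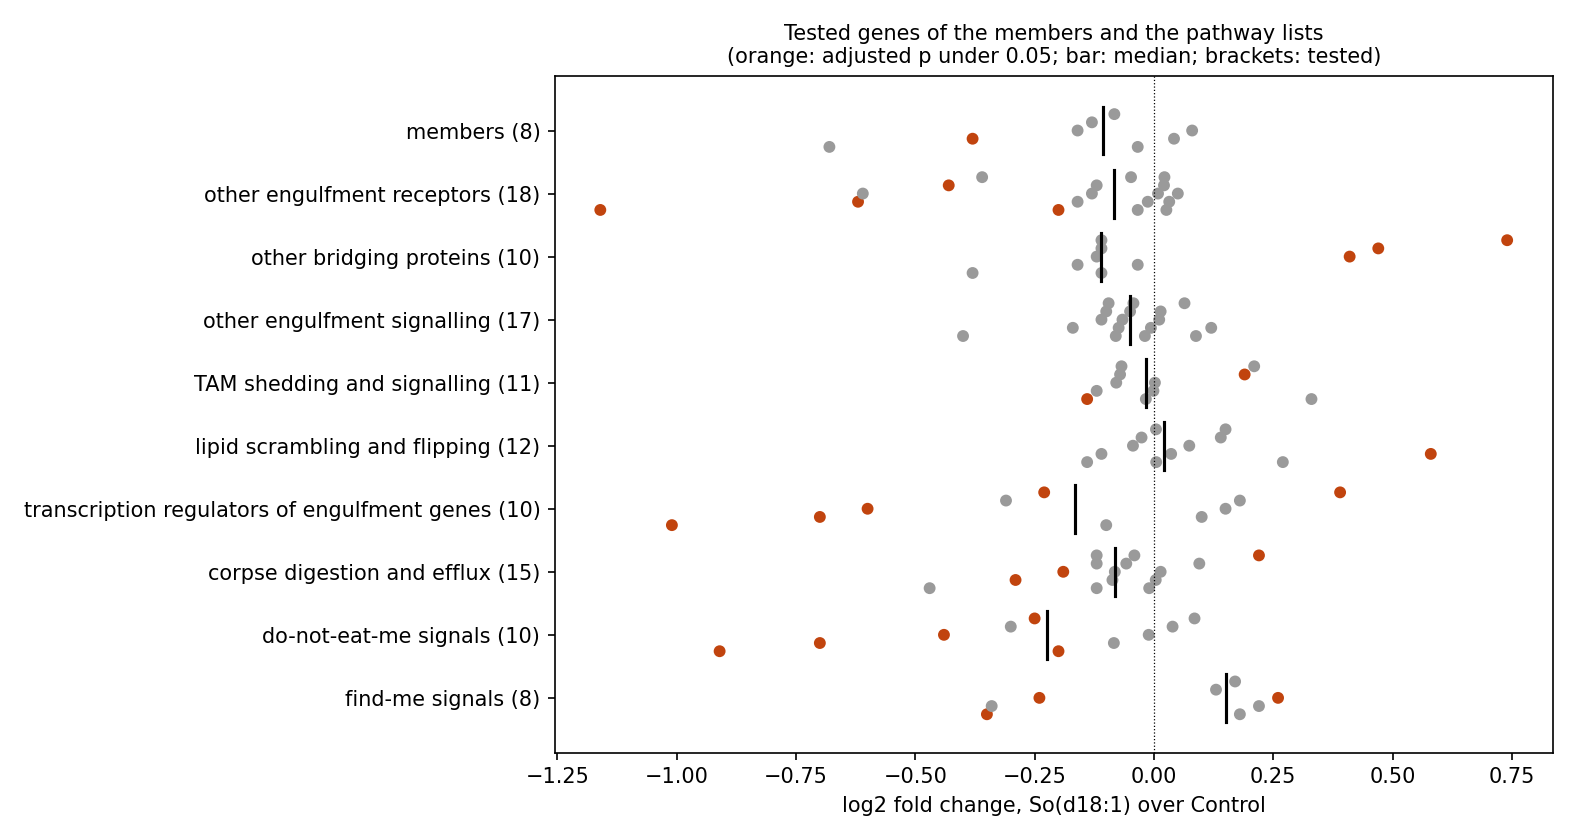
Log2 fold change of So(d18:1) over Control (x axis) for the tested genes of the members and of the 9 pathway lists (rows, with the number tested in brackets); each point is 1 gene, orange at an adjusted p under 0.05, and the bar is the list median. Medians lie between -0.22 (do-not-eat-me signals) and 0.15 (find-me signals), and the called genes of the other bridging proteins all lie above 0 while those of the other engulfment receptors all lie below 0.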

How the data were processed

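Poly(A) RNA from 8 libraries of mouse BMDMs was sequenced, 4 per group. The authors used Trim Galore 0.6.7 for trimming, HISAT2 2.2.1 for alignment to the mm10 build and featureCounts 2.0.1 for counting. The deposited values are whole-number counts per Ensembl gene, not normalized. The annotation, strand and multimapping settings are not given in the sources used here. Symbols, coordinates and overlaps were taken from GENCODE vM21 (GRCm38), which held 52081 of the 55357 identifiers, and promoters from RefSeq (GRCm38.p6), which held 9 of the 10 members; Xkr8 was not among them.

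In R 4.3.3, edgeR 4.0.16 filtered counts by filterByExpr (14514 genes left), scaled them by TMM (factors 0.989 to 1.01) and applied its quasi-likelihood test with robust dispersion estimates; Benjamini-Hochberg adjustment of p-values was over all genes tested, with a threshold of 0.05. An SE was obtained from each log2 fold change and its F statistic (the size of the change over the root of F). Log2 CPM used a prior count of 2, and fold changes used the default prior count of edgeR's fit. Levels per kilobase used the exonic lengths of the table. Total counts were 17748397 to 26088609 per library. The named genes are all 10 members, up to 3 called genes with the smallest p in each pathway list and the 3 genes most like the member with the smallest p; genes named beyond this rule are said to be so where they appear. The members and all gene lists were chosen with earlier results of these data known. In 1 pathway list a result for a single gene is not reported here. The alternatives were other scalings, other filters, a block for the replicate number, edgeR's likelihood ratio and non-robust tests, DESeq2 1.42.0, limma-voom (limma 3.58.1), the study's threshold and each library left out in turn. Simulated counts were used to test the model. Figures were drawn with matplotlib 3.10.9.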

Additional observations from a re-analysis of the deposited data

How the results depend on the processing

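Mertk was called lower under all 18 alternatives that kept the adjusted p threshold, and not under the study's threshold, where its 1.30-fold change falls short of 1.5. Over the 18 it had a log2 fold change of -0.39 to -0.35 and an adjusted p of at most 7.13e-05 (without Control library 1). The count of members called was 1 as reported, 1 under the study's threshold (Axl), 2 with no filter on low counts (Mertk and Elmo1), 2 by the likelihood ratio test, 2 by the quasi-likelihood test without robust dispersion, 2 by DESeq2 and 2 by limma-voom (Mertk and Axl in these 4), and 1 to 2 with a library left out (2 without Control library 2). The log2 fold change of Axl was -0.79 (without So(d18:1) library 3) to -0.54 (without Control library 3), with an adjusted p of up to 0.226. Leaving out 1 library moved that of Xkr8 between -0.023 (without So(d18:1) library 1) and 0.25 and that of Mfge8 between -0.011 (without So(d18:1) library 2) and 0.10. Over all genes, 1298 calls became 815 (without So(d18:1) library 2) to 1370 (without Control library 2) with a library left out. They became 564 under the study's threshold. Other tests gave 1565 (likelihood ratio), 1380 (quasi-likelihood without robust dispersion), 1495 (DESeq2) and 1309 (limma-voom). With no filter on low counts, 1723 of 28076 genes tested were called. The cause of these shifts was not tested. Over the 18 alternatives that kept the adjusted p threshold, the pathway lists gave 20 (without So(d18:1) library 4) to 39 (replicate block) calls against 26.

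The labels give both groups the replicate numbers 1 to 4. Deviations of same-numbered libraries correlated at -0.00351, 0.10, 0.0331 and 0.00908, and not every library correlated best with its own number. Correlations over all genes cannot decide whether the numbers pair the samples, so this is not settled here. The main fit took the libraries as unpaired. With the replicate number as a block, 1784 genes, 3 members (Mertk, Axl and Elmo1) and 39 pathway genes were called. In that fit the SE of Axl was 0.0538 and its adjusted p 1.45e-08, and the adjusted p of Elmo1 was 0.0428. Depth limits Tyro3 and Timd4, at 0 to 11 counts per library.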

Other observations

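Axl varied between libraries of a group more than nearly all genes of its level. The SD of its log2 CPM within groups was 0.307, and 99.9% of the 1938 genes within 0.5 of its mean log2 CPM had a smaller one, with a median of 0.0701. Mertk, the other TAM receptor gene that was well expressed, had an SD of 0.0499, and 31.7% of 1060 genes of like level had a smaller one. The remaining tested members lay between 30.9% for Dock1 and 90.4% for Xkr8, whose SD was 0.300 against a median of 0.190 for 1231 genes of like level. Within each group, Axl was highest in library 3, then in libraries 4, 1 and 2, and the first pair stood at 126 and 103 CPM in Control and 75.0 and 64.2 CPM in So(d18:1). The cause of the spread of Axl was not tested.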
